A study of Mus musculus with 18 samples.

Results

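Genes that mark regulatory T cells were followed through cultures of T helper 17 (Th17) cells, the interleukin-17-producing CD4+ T cells. They are Foxp3, Ikzf2, Ikzf4, Entpd1, Nt5e, Ctla4, Tnfrsf18, Gpr83, Izumo1r and Lrrc32, taken by symbol as 10 of the 45703 genes of the expression table. Each of the 10 was among the 14229 genes that reached 1 TPM (a transcript's share of its library, per exon length) in at least 3 libraries and were tested. Foxp3 reached that level in 6 of the 18 libraries, Lrrc32 in 11, Ikzf2 in 16 and the other members in all 18. The 6 libraries for Foxp3 were the 3 of untreated GLUT3KO cells, 2 of GLUT3KO cells with acetate and 1 of ACLYKO cells with acetate, so Foxp3 entered the test through its high groups and its differences are given as a description, not counted among the members called.

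Regulatory T cells restrain other lymphocytes, and the transcription factor FOXP3 defines their lineage. Their surface carries molecules that lower costimulation (CTLA-4), break extracellular ATP down to adenosine (CD39 and CD73) and hold latent TGF-beta (GARP). Th17 cells and induced regulatory T cells share a need for TGF-beta during their differentiation, and activated conventional T cells also transcribe several of these genes, CTLA-4 and GITR among them. A transcript of a marker gene is therefore not by itself evidence of a regulatory T cell.

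Messenger RNA was sequenced from 18 mouse cultures in 6 groups of 3, formed by 3 genotypes, each without and with acetate. The genotypes were wild type (WT), GLUT3KO (Slc2a3-fl/fl Cd4-cre, lacking the glucose transporter GLUT3) and ACLYKO (Acly-fl/fl Cd4-cre, lacking ATP-citrate lyase, the enzyme that makes cytosolic acetyl-CoA from citrate). Naive T cells were polarized towards Th17 for 48 h, kept for another 24 h with or without acetate, and then given PMA and ionomycin for 5 h together with brefeldin A and monensin. The comparisons ask how each loss, and acetate within each genotype, moved transcript levels. The acetate dose reads 20 mM in the sample protocols and 10 mM in the series text. Cd4-cre deletes in developing thymocytes that express CD4, so both deletions precede the culture. No Cre is named for the WT cells. The genetic background is labelled C57BL/6 in 12 libraries and carries a running number in place of the 6 in the other 6, of which 5 are ACLYKO. Whether any of the 3 libraries of a group came from different animals is not labelled. The p-values refer to the spread among libraries, which can be technical.

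The libraries held 18.7 to 30.1 M reads counted in genes (median 23.3 M). Slc2a3 was at 14.4 to 19.8 TPM in WT and 4.005 to 8.20 TPM in GLUT3KO (log2 change -1.41, adjusted p = 0.00118), and Acly was at 391.9 to 400.3 TPM in WT and 7.01 to 14.4 TPM in ACLYKO (log2 change -5.06, adjusted p = 8.66e-09). In untreated ACLYKO Slc2a3 was at 5.76, 13.1 and 11.7 TPM, also below WT and overlapping GLUT3KO. Acly was above WT in untreated GLUT3KO, at 725, 604 and 709 TPM. Replicate 1 of WT, of GLUT3KO, of ACLYKO and of ACLYKO with acetate stood apart from the rest of their groups on an axis that held 63.6% of the variance within groups. The 11 Th17 and T cell identity genes summed to 2769 to 6855 TPM and all were detected in each group. GLUT3 loss raised 3 of the 11 and lowered 3 (limma, adjusted p under 0.05), beside 24.9% and 8.47% of all genes. The lower ones were Il17f (log2 change -2.84), Il17a (-2.19) and Il23r (-1.05). The higher ones were Rora (1.18), Cd3e (0.98) and Trac (0.69). ACLY loss raised 0 and lowered 5, beside 12.7% and 6.38%, with Il17a at -2.83, Il23r at -2.29 and Il17f at -1.46. Among markers of other cells, 5 myeloid genes summed to 0.130 to 1.93 TPM with C1qa at 0 in every library and 5 B cell genes to 0.257 to 5.61 TPM. The B cell sum was 0.257 to 0.621 TPM in WT, 1.42 to 1.56 TPM in WT with acetate, 0.631 to 1.99 TPM in ACLYKO and 4.24 to 5.61 TPM in ACLYKO with acetate. It was 0.527 to 0.981 TPM in GLUT3KO and 1.30 to 3.16 TPM in GLUT3KO with acetate. Cd79b, the B cell gene that was tested, rose with acetate in ACLYKO (1.66, adjusted p = 0.000303) and was higher in ACLYKO than in WT with acetate (1.21, adjusted p = 0.00473). The CD8 genes Cd8a and Cd8b1 summed to 11.6 to 13.01 TPM in WT, 3.98 to 8.71 TPM in ACLYKO, 15.4 to 17.7 TPM in ACLYKO with acetate and 10.1 to 19.9 TPM in the other groups. Cd8b1 fell with ACLY loss (-0.85, adjusted p = 0.0125) and rose with acetate in ACLYKO (1.17, adjusted p = 0.00155). The 5 NK cell genes, led by Klre1, summed to 0.295 to 0.615 TPM in WT, 1.92 to 4.45 TPM in GLUT3KO and 5.62 to 12.1 TPM in GLUT3KO with acetate. Klre1 rose with GLUT3 loss without acetate (1.23, adjusted p = 0.0103) and with it (1.71, adjusted p = 0.00113). Acetate raised Klre1 in GLUT3KO (1.23, adjusted p = 0.0259). The part of these cells in the results on GLUT3KO and ACLYKO was not tested. In a bulk culture, fewer cells of a type and less RNA per cell cannot be told apart.

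The DNA before the start sites of 7 of the 10 genes was available in 9 windows from RefSeq (GRCm38.p6). For Foxp3, the adenosine-pathway gene Entpd1 and Ctla4, 1 window each is shown. FOXP3 defines the lineage, Entpd1 and Ctla4 carry results on acetate and ACLY, and no untranslated region of a coding gene is annotated in these windows. The windows at the annotated gene starts of Foxp3 (chrX:7579426-7579675) and Entpd1 overlap such regions and are not shown. Each line gives the 250 bases before a start site, 5′ to 3′ on the gene's strand. The Foxp3 window (chrX:7580233-7580482, plus strand) precedes an inner start site and lies in an exon of the long noncoding RNA gene Flicr. The Entpd1 window (chr19:40659520-40659769, plus strand) precedes an inner start site, and the Ctla4 window (chr1:60908775-60909024, plus strand) precedes the annotated gene start.
Foxp3: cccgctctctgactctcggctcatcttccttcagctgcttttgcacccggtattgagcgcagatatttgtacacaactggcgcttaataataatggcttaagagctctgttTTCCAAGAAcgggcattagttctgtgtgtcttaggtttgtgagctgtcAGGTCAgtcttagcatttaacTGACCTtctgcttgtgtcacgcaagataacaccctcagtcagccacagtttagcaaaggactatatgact
Entpd1: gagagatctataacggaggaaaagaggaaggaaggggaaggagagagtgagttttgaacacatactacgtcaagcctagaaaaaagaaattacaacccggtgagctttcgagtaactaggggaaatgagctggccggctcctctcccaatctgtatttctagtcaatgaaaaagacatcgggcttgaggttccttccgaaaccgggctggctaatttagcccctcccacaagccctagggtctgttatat
Ctla4: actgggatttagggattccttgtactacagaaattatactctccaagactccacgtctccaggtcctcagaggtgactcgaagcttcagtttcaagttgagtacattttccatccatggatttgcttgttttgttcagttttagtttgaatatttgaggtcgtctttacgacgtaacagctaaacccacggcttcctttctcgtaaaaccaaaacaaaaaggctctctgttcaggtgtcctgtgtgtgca
Capitals mark matches to motifs searched on both strands, which were TTCNNNGAA (STAT), TGANTCA (AP-1), TGTTTAC (forkhead) and AGGTCA (ROR site). The Foxp3 window held 1 STAT match at -139 to -131 and 2 ROR sites at -91 to -86 and -70 to -65, and none of the matches overlap each other. The windows of Entpd1 and Ctla4 held none of the 4 motifs. Over all 9 windows, STAT matched in 2 (Foxp3 and Tnfrsf18) and the ROR site in 1, against 7.02% and 14.0% of 32851 windows of the same length. AP-1 and forkhead matched in none of the 9, against 6.75% and 3.17%. GC content was 46.0% for Foxp3, 47.2% for Entpd1 and 42.4% for Ctla4, with a median of 52.4% over all windows. These matches are letters in a sequence and no measure of binding.

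Loss of GLUT3 raised Nt5e, Gpr83, Ikzf2 and Lrrc32 and lowered Ctla4, so 5 of 10 members passed an adjusted p of 0.05 where 33.4% of all tested genes did (24.9% higher and 8.47% lower). Loss of ACLY lowered Ctla4 and Izumo1r and raised none, 2 of 10 members against 19.1% of all genes (6.38% lower). With acetate, 4 members were higher in GLUT3KO than in WT (Nt5e, Gpr83, Ikzf2 and Lrrc32; 30.4% of all genes passed, 20.9% higher), while in ACLYKO Ikzf2 was higher and Ctla4 lower (13.5% of all genes, 11.5% higher and 1.98% lower). Both losses were compared with the same WT libraries within an acetate state, so they share their controls. The 10 genes were chosen with earlier results of these data known, so these counts describe them and are no test of the set. The median log2 change of the 10 members was 0.39 for GLUT3 loss and -0.25 for ACLY loss, beside 0.17 and 0.03 over all tested genes. With acetate these medians were 0.38 for GLUT3 loss and 0.28 for ACLY loss, beside 0.08 and 0.16.

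Every member called for acetate was higher with it. Acetate raised none past the threshold in WT (6.50% of all genes passed), where 2 members, Entpd1 and Izumo1r, had an unadjusted p under 0.05 in limma. Voom on the recovered reads called 0 as well, whereas both of these members passed with quantile normalization, after median-ratio scaling and when the libraries that stand apart were left out, and Entpd1 passed with the replicate number as a block within genotype. That block raised the count in ACLYKO from 5 to 8. In the fit of all libraries acetate raised Ctla4, Lrrc32 and Izumo1r in GLUT3KO (12.7% of all genes, 4.86% upwards), where the NK cell gene Klre1 was higher too. In ACLYKO acetate raised Entpd1, Ctla4, Ikzf2, Ikzf4 and Izumo1r (17.3%, 11.7% upwards), and the B cell and CD8 genes above were higher too. The median log2 change of the members was 0.26 in WT, 0.34 in GLUT3KO and 0.63 in ACLYKO, beside -0.02, -0.07 and 0.10 over all genes. Part of the split between higher and lower calls over all genes rests on the scaling. Of the calls for GLUT3 loss 74.6% were higher on the TPM scale and 54.1% after median-ratio scaling, which moved the median of all genes from 0.17 to -0.02 on the log2 scale.

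**Figure D1:**
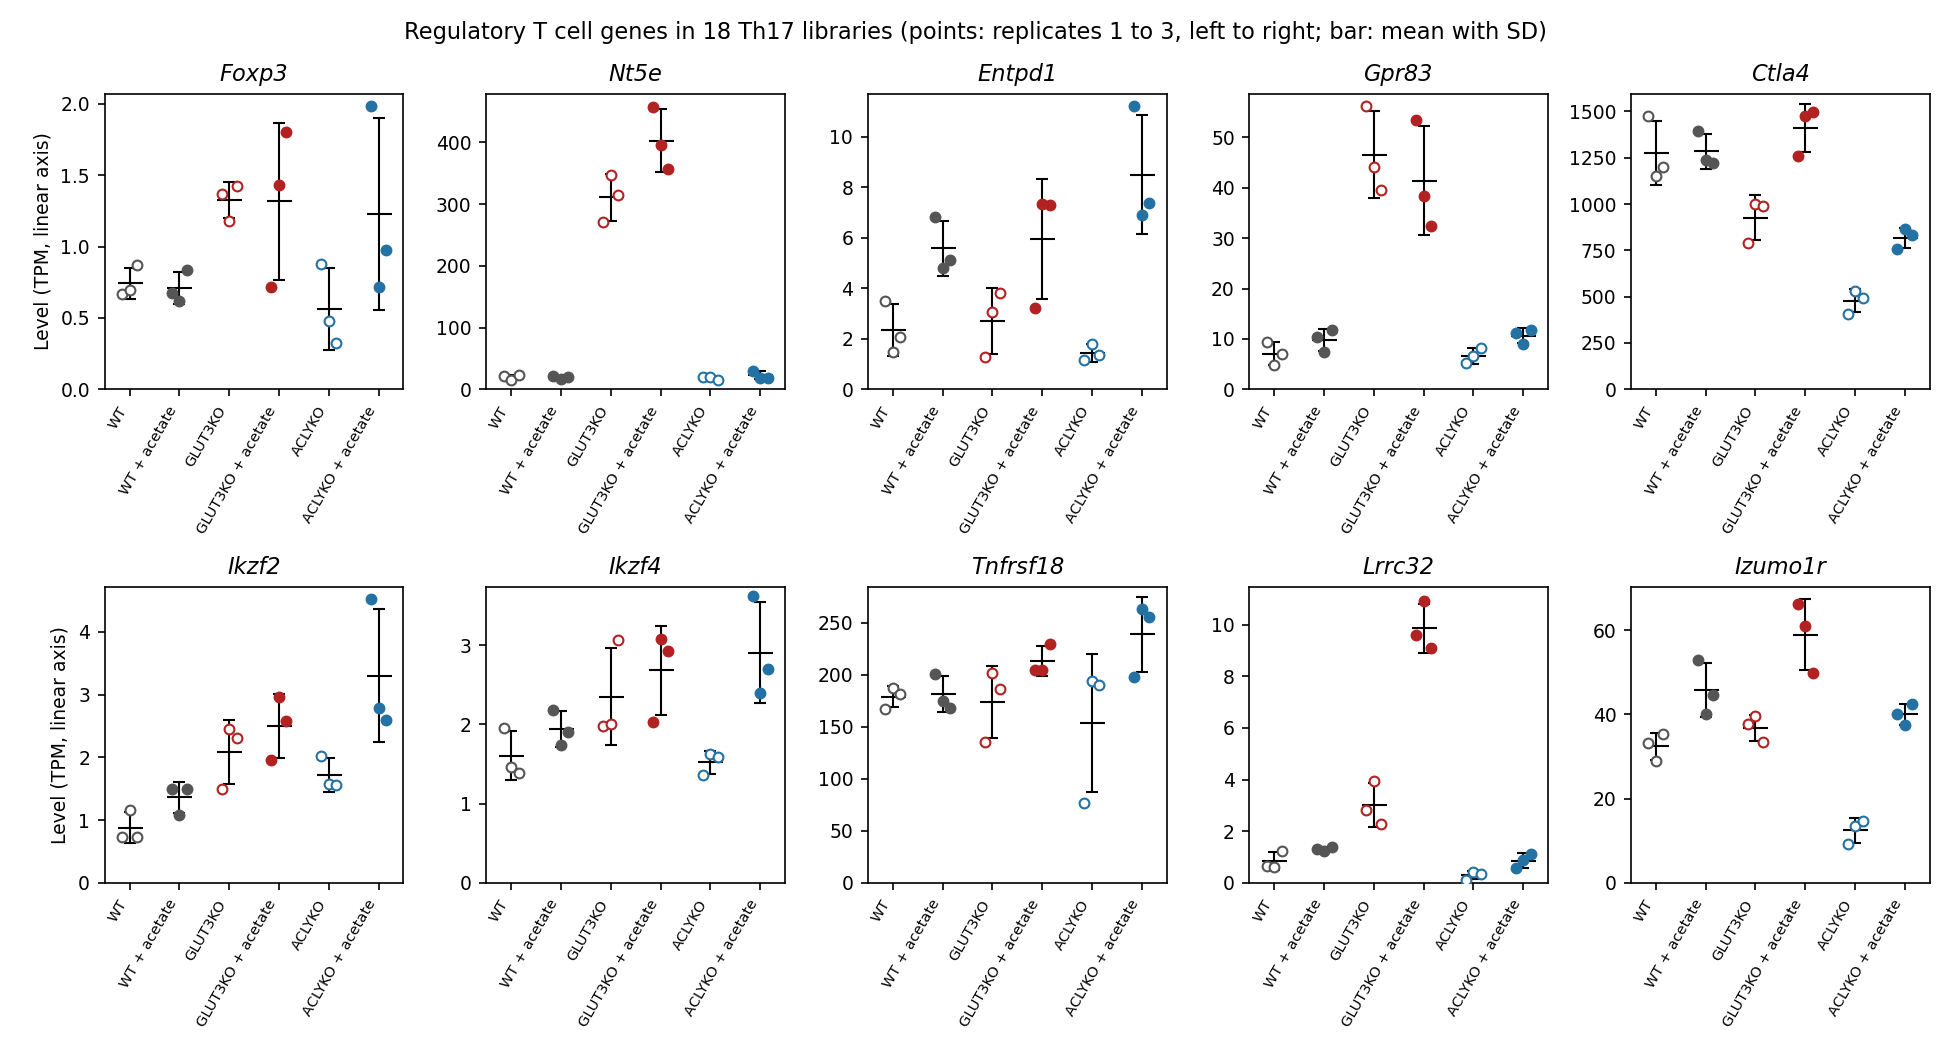
TPM of each of the 10 genes on a linear axis in the 6 groups, with 1 point for each library, open without and filled with acetate, and a bar at the group mean with its SD. Nt5e and Gpr83 separate the GLUT3KO libraries from all others, Ctla4 and Izumo1r are lowest in untreated ACLYKO, and Foxp3 stays between 0.325 and 1.99 TPM.

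Among the transcription factors, Foxp3 itself was at a low level in every group. Its gene (ID 20371) lies at chrX:7579676-7595243 on the plus strand in GRCm38. Values for each group are given in the order of replicates 1, 2 and 3 throughout. Without acetate, Foxp3 was at 0.668, 0.694 and 0.869 TPM in WT, 1.37, 1.18 and 1.43 TPM in GLUT3KO, and 0.881, 0.479 and 0.325 TPM in ACLYKO. With acetate it was at 0.672, 0.620 and 0.836 TPM in WT, 0.716, 1.43 and 1.80 TPM in GLUT3KO, and 1.99, 0.715 and 0.974 TPM in ACLYKO. Every untreated GLUT3KO library was above every untreated WT and ACLYKO library, whereas with acetate the 3 genotypes overlapped. These levels stand for 12 to 80 reads a library. The GLUT3KO mean was 1.78 times that of WT, a log2 change of 0.42 ± 0.21 (SE, 95% interval -0.02 to 0.86). Because Foxp3 entered the test through its high groups, its p-values cannot decide whether groups differ. Only the sizes of its differences are given here. Between GLUT3KO and ACLYKO without acetate the difference was 0.59 ± 0.21. That difference ran from 0.41 with quantile normalization to 1.19 with a pseudocount of 0.1. With 1 library left out it ran from 0.48 (without ACLYKO replicate 3) to 0.73 (without ACLYKO replicate 1). For GLUT3 loss with acetate the log2 change of Foxp3 was 0.41, and 0.61 without replicate 1 of GLUT3KO with acetate. Acetate changed Foxp3 by 0.49 ± 0.21 in ACLYKO, which was 0.51 above the change in WT. The acetate change in GLUT3KO differed from that in ACLYKO by -0.52.

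A neighbour shares sequence with Foxp3. Ccdc22, on the opposite strand, overlaps 590 of its 3928 exon bases (15%) in the GENCODE vM21 annotation, and how strand was set in counting is not stated in these sources. Ccdc22 was at 15.9, 15.02 and 17.3 TPM in WT and 24.4, 28.3 and 22.8 TPM in GLUT3KO, without overlap, at a log2 change of 0.61 (adjusted p = 0.0713). Its part in the reads given to Foxp3 was not tested.

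Ikzf2 and Ikzf4 encode Helios and Eos, Ikaros-family factors, and Eos acts with FOXP3 as a corepressor. Ikzf2 (chr1:69531207-69687351, minus strand) was at 0.730, 1.16 and 0.738 TPM in WT, 1.50, 2.46 and 2.30 TPM in GLUT3KO, and 2.03, 1.58 and 1.56 TPM in ACLYKO. After acetate the levels were 1.50, 1.08 and 1.50 TPM in WT, 1.96, 2.96 and 2.58 TPM in GLUT3KO, and 4.52, 2.79 and 2.60 TPM in ACLYKO. Without and with acetate, all libraries of both knockouts lay above those of WT. Ikzf2 rose with GLUT3 loss by 0.71 ± 0.18 on the log2 scale (adjusted p = 0.00798), a TPM ratio of 2.38, and by 0.56 ± 0.18 with acetate (adjusted p = 0.0318). Quantile normalization ended the first call (adjusted p = 0.0523). The second was lost with median-ratio scaling (adjusted p = 0.0557), quantile normalization (0.0681) or voom (0.0973). It was also lost without replicate 1 (0.0546), 2 (0.126) or 3 (0.0553) of WT with acetate and without replicate 2 (0.128) or 3 (0.0852) of GLUT3KO with acetate. For ACLY loss the change was 0.54 ± 0.18 without acetate, short of the threshold (adjusted p = 0.0545, and 0.0276 with a pseudocount of 0.1), and 0.84 ± 0.18 with acetate (adjusted p = 0.00658). Acetate raised Ikzf2 in ACLYKO by 0.64 ± 0.18 (adjusted p = 0.0267), a call that was lost with median-ratio scaling (0.0563), quantile normalization (0.242) or only the 2 groups in the fit (0.232). It was also lost without ACLYKO replicate 2 (adjusted p = 0.0598) or 3 (0.0614) or without replicate 1 of ACLYKO with acetate (0.111), the library with the highest level. In WT its acetate change was 0.33 (adjusted p = 0.360).

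Ikzf4 (chr10:128630839-128669671, minus strand) was at 1.95, 1.47 and 1.39 TPM in WT, 1.98, 2.00 and 3.06 TPM in GLUT3KO, and 1.36, 1.63 and 1.58 TPM in ACLYKO. With acetate the 9 libraries read 2.19, 1.74 and 1.90 TPM in WT, 2.03, 3.08 and 2.93 TPM in GLUT3KO, and 3.62, 2.39 and 2.703 TPM in ACLYKO. Its only call was the rise with acetate in ACLYKO, where all treated libraries were above all untreated ones. That rise was 0.62 ± 0.16 (adjusted p = 0.0165), a TPM ratio of 1.91. It was lost without replicate 1 of ACLYKO with acetate (0.49, adjusted p = 0.0712), without the 4 libraries that stand apart (0.0687), with quantile normalization (0.160) and with only the 2 groups in the fit (0.157). For GLUT3 loss Ikzf4 changed by 0.35 ± 0.16 (adjusted p = 0.111), which passed without those 4 libraries (0.53, adjusted p = 0.0196). With acetate it differed from WT by 0.32 in GLUT3KO (adjusted p = 0.170) and 0.40 in ACLYKO (adjusted p = 0.132), neither past the threshold. Its acetate change in ACLYKO differed from that in WT by 0.44 (adjusted p = 0.523), and the change in GLUT3KO from that in ACLYKO by -0.48 (adjusted p = 0.291).

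The pair of ectoenzymes that turn ATP into adenosine moved under different conditions. Nt5e encodes CD73, which cleaves AMP to adenosine (chr9:88327609-88372089, plus strand). It was at 21.6, 15.2 and 22.4 TPM in WT, 271, 348 and 315 TPM in GLUT3KO, and 20.6, 20.0 and 15.1 TPM in ACLYKO. Under acetate the gene was at 21.0, 16.1 and 20.0 TPM in WT, 457, 396 and 356 TPM in GLUT3KO, and 29.95, 18.8 and 19.1 TPM in ACLYKO. All 6 GLUT3KO libraries lay far above the other 12, which overlapped one another. The means were 19.8 ± 3.99 TPM in WT and 311 ± 38.3 TPM in GLUT3KO (SD, n = 3), a ratio of 15.8. The log2 change was 3.92 ± 0.21 (adjusted p = 4.27e-09), and with acetate it was 4.34 ± 0.21 (adjusted p = 1.70e-09), a ratio of 21.2. By mean level Nt5e moved from rank 5886 of 14229 tested genes in WT to rank 533 in GLUT3KO. Every library of GLUT3KO with acetate was above every one without it, by a log2 change of 0.37 ± 0.21 that did not pass (adjusted p = 0.249).

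Entpd1 encodes CD39, which removes phosphates from ATP and ADP and so feeds CD73 (chr19:40612366-40741602, plus strand). Without acetate it was at 3.50, 1.48 and 2.08 TPM in WT, 1.27, 3.06 and 3.82 TPM in GLUT3KO, and 1.15, 1.81 and 1.35 TPM in ACLYKO, and the genotypes overlapped. In acetate-treated libraries it was at 6.84, 4.82 and 5.11 TPM in WT, 3.20, 7.32 and 7.32 TPM in GLUT3KO, and 11.2, 6.92 and 7.38 TPM in ACLYKO. In WT and in ACLYKO all treated libraries were above all untreated ones, while in GLUT3KO the treated replicate 1 lay below the untreated replicate 3. In ACLYKO Entpd1 rose by 1.95 ± 0.32 on the log2 scale (adjusted p = 0.000646), a TPM ratio of 5.92. In WT the change was 1.01 ± 0.32 (adjusted p = 0.0813) and in GLUT3KO 0.90 ± 0.32 (adjusted p = 0.0797), ratios of 2.38 and 2.19. With the replicate number within genotype as a block, an alternative to the main fit, both passed, at adjusted p = 0.0199 in WT and 0.0182 in GLUT3KO. In WT, Entpd1 also passed without the 4 libraries that stand apart (1.24, adjusted p = 0.00817), with median-ratio scaling (0.0397) and with quantile normalization (0.0475). In GLUT3KO it passed without replicate 1 of GLUT3KO with acetate (1.23, adjusted p = 0.0293) and with median-ratio scaling (0.0378). The acetate change in ACLYKO exceeded that in WT by 0.94 ± 0.46, which did not pass (adjusted p = 0.473), nor did its difference from GLUT3KO (adjusted p = 0.236). The pseudogene Gm8783 overlaps Entpd1 on the same strand and was at 14.8 to 27.1 TPM, and its part in the reads given to Entpd1 was not tested.

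**Figure D2:**
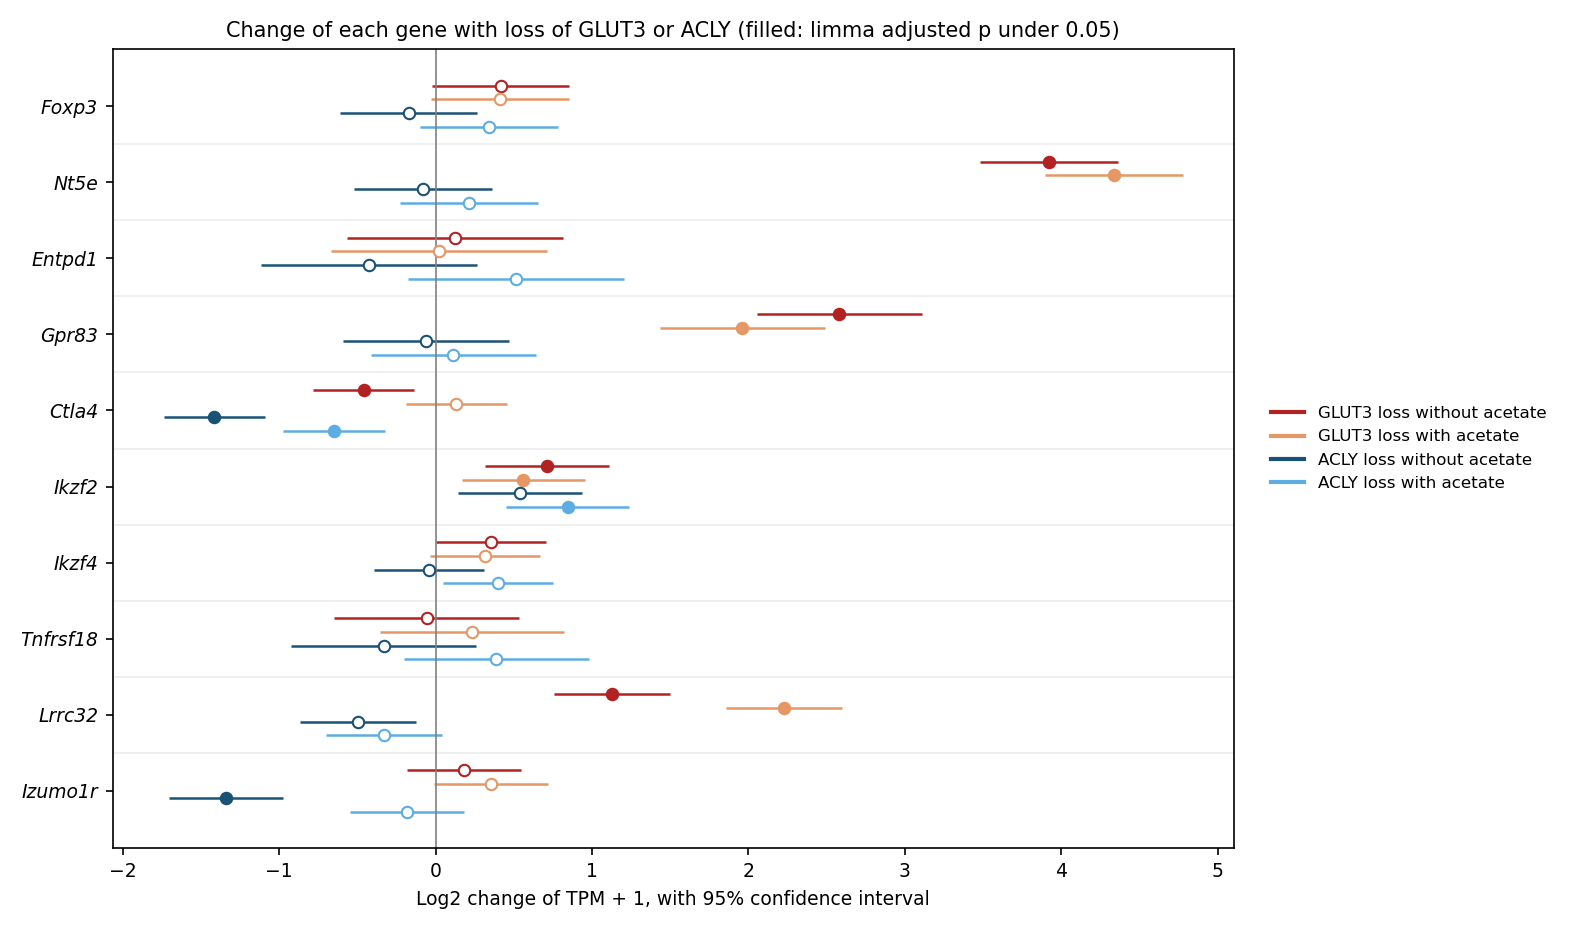
Log2 change of each of the 10 genes for loss of GLUT3 and loss of ACLY, without and with acetate, with 95% intervals, and filled points where the adjusted p is under 0.05. Nt5e is farthest to the right for GLUT3 loss at 3.92 and 4.34, and Ctla4 is farthest to the left for ACLY loss without acetate at -1.41.

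Ctla4 was the most abundant of the receptors and of the whole set. It encodes CTLA-4, which competes with CD28 for CD80 and CD86 (chr1:60909025-60915832, plus strand), and its mean held rank 101 of 14229 genes in WT, rank 134 in GLUT3KO and rank 315 in ACLYKO. Without acetate it was at 1473, 1152 and 1200 TPM in WT, 788, 1002 and 990 TPM in GLUT3KO, and 409, 533 and 491 TPM in ACLYKO. The 3 genotypes did not overlap, with WT above GLUT3KO above ACLYKO. With acetate it was at 1394, 1239 and 1221 TPM in WT, 1262, 1476 and 1494 TPM in GLUT3KO, and 758, 866 and 831 TPM in ACLYKO. The WT and GLUT3KO libraries then overlapped and the ACLYKO libraries stayed below both. ACLY loss lowered Ctla4 by a log2 change of -1.41 ± 0.15 (adjusted p = 1.76e-05), with WT at 2.67 times the ACLYKO level, and by -0.65 ± 0.15 with acetate (adjusted p = 0.00985), with WT at 1.57 times. The latter was lost without replicate 1 of WT with acetate (adjusted p = 0.0523) and with quantile normalization (0.147).

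GLUT3 loss lowered Ctla4 by -0.46 ± 0.15 (adjusted p = 0.0301), with WT at 1.38 times the GLUT3KO level. This call was lost without WT replicate 1 (adjusted p = 0.0985), WT replicate 3 (0.0512) or GLUT3KO replicate 1 (0.137). It was also lost without the 4 libraries that stand apart (-0.24, adjusted p = 0.0629), with quantile normalization (0.198) and with only the 2 groups in the fit (0.102). GLUT3KO was above ACLYKO by 0.95 ± 0.15 without acetate (adjusted p = 0.000151) and by 0.78 ± 0.15 with it (adjusted p = 0.000848). Acetate left WT at 1.01 times its untreated mean. It raised Ctla4 by 0.61 ± 0.15 in GLUT3KO (adjusted p = 0.0167) and by 0.78 ± 0.15 in ACLYKO (adjusted p = 0.00217), ratios of 1.52 and 1.71. The call in GLUT3KO was lost without GLUT3KO replicate 1 (adjusted p = 0.0852), without replicate 2 (0.0722) or 3 (0.0727) of GLUT3KO with acetate, and with quantile normalization (0.0597). The call in ACLYKO was lost with only the 2 groups in the fit (0.120). The differences from the acetate change in WT, 0.59 ± 0.22 in GLUT3KO and 0.76 ± 0.22 in ACLYKO, did not pass (adjusted p = 0.383 and 0.119). The second passed without the libraries that stand apart (0.60, adjusted p = 0.0350).

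Tnfrsf18 encodes GITR, a costimulatory receptor of the TNF receptor family (chr4:156026322-156028894, plus strand). It was at 168, 188 and 182 TPM in WT, 135, 201 and 186 TPM in GLUT3KO, and 77.1, 194 and 190 TPM in ACLYKO. After acetate the levels were 201, 175 and 168 TPM in WT, 204, 205 and 230 TPM in GLUT3KO, and 198, 263 and 255 TPM in ACLYKO. Without acetate the 3 genotypes overlapped, and ACLYKO replicate 1, a library that stands apart, was the lowest of all 18. No comparison called Tnfrsf18 in the fit of all libraries. In ACLYKO every library with acetate was above every one without it, at 0.74 ± 0.28 (adjusted p = 0.0829). That rise passed with the replicate number as a block within genotype (adjusted p = 0.0397), without ACLYKO replicate 2 (0.0313) or 3 (0.0350), and without the libraries that stand apart, where it was smaller (0.43, adjusted p = 0.00627). It differed from the change in WT by 0.72 (adjusted p = 0.545).

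Gpr83 encodes a G protein-coupled receptor used as a surface marker of regulatory T cells (chr9:14859880-14870789, plus strand). It was at 9.33, 4.82 and 7.10 TPM in WT, 56.1, 44.1 and 39.5 TPM in GLUT3KO, and 5.14, 6.60 and 8.19 TPM in ACLYKO. Under acetate the gene was at 10.4, 7.39 and 11.7 TPM in WT, 53.4, 38.4 and 32.4 TPM in GLUT3KO, and 11.1, 8.93 and 11.7 TPM in ACLYKO. As for Nt5e, all 6 GLUT3KO libraries were above the other 12. GLUT3 loss raised Gpr83 by 2.58 ± 0.25 (adjusted p = 1.90e-06), a ratio of 6.58, and by 1.96 ± 0.25 with acetate (adjusted p = 2.77e-05), a ratio of 4.21. Acetate changed it by 0.61 ± 0.25 in ACLYKO (adjusted p = 0.106), which passed with the replicate number as a block within genotype (adjusted p = 0.0327), and by 0.44 in WT (adjusted p = 0.372). The acetate change in GLUT3KO differed by -0.62 from that in WT (adjusted p = 0.935) and by -0.79 from that in ACLYKO (adjusted p = 0.239).

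Izumo1r encodes folate receptor 4, a surface protein of mouse regulatory T cells, and lies 15025 bases from Gpr83 on the opposite strand (chr9:14885814-14903951). It was at 33.2, 29.0 and 35.3 TPM in WT, 37.6, 39.5 and 33.5 TPM in GLUT3KO, and 9.11, 13.5 and 14.6 TPM in ACLYKO. In acetate-treated libraries it was at 52.8, 40.2 and 44.6 TPM in WT, 66.2, 61.0 and 49.7 TPM in GLUT3KO, and 40.2, 37.4 and 42.5 TPM in ACLYKO. Untreated ACLYKO lay below all other groups, and with acetate its libraries overlapped those of WT. Unlike Gpr83, its neighbour, Izumo1r overlapped between WT and GLUT3KO in both acetate states, and their difference with acetate (0.35, adjusted p = 0.137) passed without the libraries that stand apart (0.0388). ACLY loss lowered it by a log2 change of -1.34 ± 0.17 (adjusted p = 8.32e-05), with WT at 2.61 times the ACLYKO level, and this was lost with only the 2 groups in the fit (adjusted p = 0.0513). Acetate raised it in ACLYKO by 1.63 ± 0.17 (adjusted p = 1.27e-05) and in GLUT3KO by 0.66 ± 0.17 (adjusted p = 0.0208), ratios of 3.22 and 1.599. In WT the change was 0.48 ± 0.17 (adjusted p = 0.119), a ratio of 1.41 with every treated library above every untreated one.

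The call for acetate in GLUT3KO was lost without GLUT3KO replicate 1 (adjusted p = 0.0575) or 3 (0.0934) and without replicate 1 (0.0904) or 2 (0.0794) of GLUT3KO with acetate. In WT, Izumo1r passed with median-ratio scaling (adjusted p = 0.0477), with quantile normalization (0.0298) and without the libraries that stand apart (0.0365). The acetate change of Izumo1r in ACLYKO exceeded that in WT by 1.15 ± 0.24 (adjusted p = 0.0295; 1.34% of all genes passed). It was the sole member called there, and with the number as a block within genotype it did not pass (adjusted p = 0.0616). The call was also lost without replicate 1 or 3 of WT, without replicate 2 or 3 of WT with acetate or without any 1 of the ACLYKO libraries with acetate (adjusted p from 0.0547 to 0.0968), with voom (0.0783) and with only the groups compared in the fit (0.109). The acetate change in GLUT3KO was the lower when set against that in ACLYKO, at a difference of -0.98 ± 0.24 (adjusted p = 0.0292; 4.87% of all genes passed). That call was lost without replicate 1 or 2 of GLUT3KO, without replicate 2 or 3 of GLUT3KO with acetate or without replicate 1 or 3 of ACLYKO with acetate (adjusted p from 0.0583 to 0.0823). It was also lost with median-ratio scaling (0.0638), voom (0.0988) or only the groups compared in the fit (0.101).

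Lrrc32 encodes GARP, which tethers latent TGF-beta to the cell surface (chr7:98489305-98501831, plus strand). Without acetate it was at 0.637, 0.617 and 1.24 TPM in WT, 2.83, 3.94 and 2.27 TPM in GLUT3KO, and 0.120, 0.415 and 0.335 TPM in ACLYKO. With acetate it was at 1.33, 1.24 and 1.38 TPM in WT, 9.58, 10.9 and 9.08 TPM in GLUT3KO, and 0.568, 0.878 and 1.13 TPM in ACLYKO. In both acetate states the 3 genotypes stood in the order GLUT3KO, WT, ACLYKO with no overlap between them. GLUT3 loss raised Lrrc32 by 1.13 ± 0.17 (adjusted p = 0.000155), a ratio of 3.62, and by 2.23 ± 0.17 with acetate (adjusted p = 2.42e-07), a ratio of 7.49. Acetate raised it in GLUT3KO by 1.45 ± 0.17 (adjusted p = 9.37e-05), a ratio of 3.27.

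The untreated ACLYKO libraries held 4, 20 and 13 reads of Lrrc32, which sets how firmly its fall can be put. For ACLY loss the change was -0.50 ± 0.17 on the log2(TPM + 1) scale (adjusted p = 0.0604), with WT at 2.87 times the ACLYKO level. The change passed with a pseudocount of 0.1 (-1.28, adjusted p = 0.0157), with voom on the recovered reads (-1.70, adjusted p = 0.0297) and with median-ratio scaling (-0.54, adjusted p = 0.0379). With acetate the change was -0.33 (adjusted p = 0.258), and acetate in WT gave 0.35 (adjusted p = 0.286). Acetate in ACLYKO gave 0.52 ± 0.17 (adjusted p = 0.0528), a ratio of 2.95. That change passed with the number as a block within genotype (adjusted p = 0.0288), with a pseudocount of 0.1 (1.34, adjusted p = 0.0139), with voom (1.65, adjusted p = 0.0378), and without ACLYKO replicate 2 (0.0485) or replicate 1 of ACLYKO with acetate (0.0357). The acetate change in GLUT3KO exceeded that in WT by 1.10 ± 0.25 (adjusted p = 0.0594; 0.773% of all genes passed, and none of the members), and it passed without GLUT3KO replicate 2 (1.26, adjusted p = 0.0259), without the libraries that stand apart (0.0275) and with median-ratio scaling (0.0406) or quantile normalization (0.0300). It exceeded that in ACLYKO by 0.93 ± 0.25 (adjusted p = 0.0423) on this scale, but by 0.37 (adjusted p = 0.746) with a pseudocount of 0.1 and 0.21 (adjusted p = 0.918) with voom. The call was also lost without replicate 1 or 3 of GLUT3KO, any 1 of the GLUT3KO libraries with acetate, replicate 2 or 3 of ACLYKO or replicate 1 or 2 of ACLYKO with acetate (adjusted p from 0.0608 to 0.122).

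**Figure D3:**
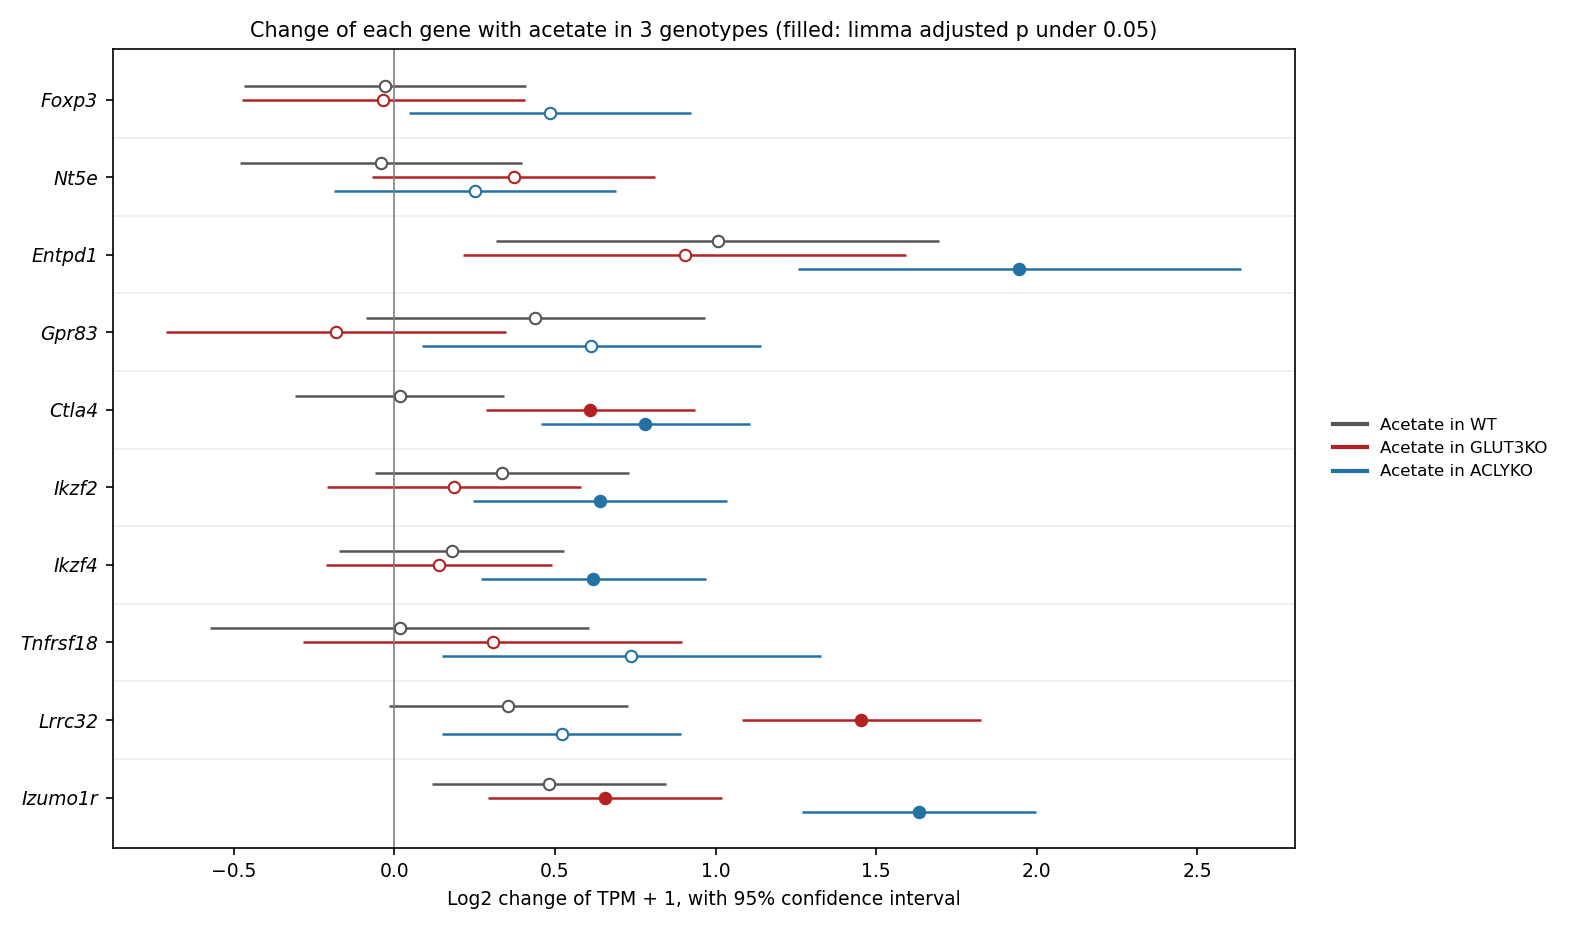
Log2 change of each of the 10 genes with acetate in WT, GLUT3KO and ACLYKO, with 95% intervals, and filled points where the adjusted p is under 0.05. Entpd1 and Izumo1r rise most in ACLYKO, at 1.95 and 1.63, and Lrrc32 rises most in GLUT3KO, at 1.45.

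GLUT3KO and ACLYKO were also compared directly. Without acetate 5 members, leaving Foxp3 uncounted, were higher in GLUT3KO and none lower, against 25.2% of all genes higher and 40.4% called in either direction. These were Nt5e, Gpr83, Ctla4, Lrrc32 and Izumo1r, with log2 differences of 4.003 for Nt5e (adjusted p = 2.75e-09), 2.64 for Gpr83 (1.01e-06) and 1.62 for Lrrc32 (3.74e-06). With acetate the same 5 were higher, against 17.7% of all genes higher and 37.7% called in either direction, and the differences were 4.12 for Nt5e (adjusted p = 2.57e-09), 1.85 for Gpr83 (3.66e-05) and 2.55 for Lrrc32 (4.74e-08). Izumo1r differed by 0.54 with acetate (adjusted p = 0.0214), after 1.52 without acetate (adjusted p = 5.89e-06). Its call with acetate was lost without replicate 1 (adjusted p = 0.0956) or 2 (0.0678) of GLUT3KO with acetate, without replicate 2 of ACLYKO with acetate (0.0707) and with voom (0.0654). Ikzf4 was 0.40 higher in GLUT3KO without acetate and did not pass (adjusted p = 0.0680).

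Genes that work around the 10 were read from 6 lists. Icos, Itgb8 and Tgfb1 each stand in 2 of them. Their counts are read against the shares of all 14229 genes called higher and lower, which were 24.9% and 8.47% for GLUT3 loss, 12.7% and 6.38% for ACLY loss, and 4.22% and 2.28%, 4.86% and 7.89%, and 11.7% and 5.60% for acetate in WT, GLUT3KO and ACLYKO. Without the libraries that stand apart these shares became 41.5% and 18.5%, 29.4% and 9.90%, 11.1% and 8.74%, 11.6% and 24.5%, and 14.4% and 17.2%. Like the 10 genes, the lists were chosen with earlier results of these data known. Counts above these shares therefore describe the lists and are no test of them.

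Of 19 other receptors found on regulatory T cells, GLUT3 loss raised 9 and lowered 1 where 24.9% and 8.47% of all genes were called, with a list median log2 change of 0.63 beside 0.17. Tnfrsf9, which encodes the costimulatory receptor 4-1BB, rose from 76.4, 85.5 and 83.8 TPM in WT to 303, 361 and 437 TPM in GLUT3KO (log2 change 2.14, adjusted p = 1.45e-07) and was at 23.3, 30.3 and 25.3 TPM in ACLYKO (-1.61, adjusted p = 8.23e-06). The 3 genotypes did not overlap for Tnfrsf9. ACLY loss raised 4 of these receptors and lowered 2 (12.7% and 6.38% of all genes), with a median of -0.15. Acetate raised 2 of the 19 in WT, 4 in GLUT3KO and 9 in ACLYKO and lowered none, beside 4.22%, 4.86% and 11.7% of all genes called higher. Without the libraries that stand apart the WT count became 7, and 1 receptor was lower in each knockout. Among those raised was Ccr8, a chemokine receptor of tissue regulatory T cells, by 1.64 in WT (adjusted p = 0.00529), 1.26 in GLUT3KO (0.0154) and 2.24 in ACLYKO (0.000145). The rise of Ccr8 in GLUT3KO did not pass without GLUT3KO replicate 1 (0.0824) or replicate 2 (0.0648) or 3 (0.0540) of GLUT3KO with acetate.

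Of 7 tested genes for suppressive products, 4 rose with each loss and none fell, beside 24.9% of all genes higher for GLUT3 loss and 12.7% for ACLY loss, with list medians of 0.90 and 1.69. These were Penk, Gzmb, Areg and Fgl2 for GLUT3 loss and Penk, Areg, Il10 and Gzmb for ACLY loss. With median-ratio scaling 3 rose and 1 fell for GLUT3 loss, and 4 rose and 1 fell for ACLY loss. Without the libraries that stand apart 5 rose and 1 fell for each loss. Il10, the gene of the suppressive cytokine interleukin-10, was at 41.0, 42.1 and 39.0 TPM in WT and 123, 150 and 162 TPM in ACLYKO (log2 change 1.80, adjusted p = 0.000188). GLUT3 loss did not raise Il10, at a change of -0.56 that did not pass (adjusted p = 0.103). With acetate Il10 was at 442, 345 and 342 TPM in WT (3.17, adjusted p = 1.15e-05) and 266, 307 and 349 TPM in GLUT3KO, from 16.8, 38.3 and 31.5 TPM (3.43, adjusted p = 1.42e-06). Neither set of treated libraries overlapped its untreated one. In ACLYKO it went to 193, 285 and 299 TPM with acetate, a change of 0.82 (adjusted p = 0.0358) that was lost without ACLYKO replicate 1 (0.0869) or 2 (0.0529), without replicate 2 (0.122) or 3 (0.141) of ACLYKO with acetate, with no filter (0.0513), with median-ratio scaling (0.0641) and with only the 2 groups in the fit (0.177). The acetate change of Il10 in ACLYKO was below that in WT by a difference of -2.35 (adjusted p = 0.00441), and that in GLUT3KO exceeded it by 2.62 (adjusted p = 0.000749). Acetate raised 1 and lowered 1 of the 7 in WT and in GLUT3KO, and raised 2 and lowered 3 in ACLYKO (2 and 2 in WT without the libraries that stand apart). Fgl2, a secreted fibrinogen-like protein, fell with acetate in WT (-1.39, adjusted p = 0.00416), GLUT3KO (-1.49, adjusted p = 0.00149) and ACLYKO (-1.15, adjusted p = 0.00527, and 0.0525 with only the 2 groups in the fit). The ACLYKO values of Il10 and Fgl2 for acetate were added after they had been seen.

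Of 32 partners and regulators of FOXP3, 12 rose and 5 fell with GLUT3 loss, beside 24.9% and 8.47% of all genes (21 and 5 without the libraries that stand apart, 10 and 6 with median-ratio scaling), and 3 rose and 3 fell with ACLY loss (10 and 3, and 3 and 6), near the 12.7% and 6.38% of all genes. Stat5a, which carries the interleukin-2 signal to Foxp3, fell from 71.5, 76.0 and 73.0 TPM in WT to 24.8, 23.3 and 27.4 TPM in GLUT3KO (-1.51, adjusted p = 1.98e-07). Smad3, a carrier of the TGF-beta signal, rose from 16.0, 11.1 and 12.8 TPM to 52.2, 48.4 and 45.8 TPM (1.81, adjusted p = 9.30e-06). Neither gene overlapped between the genotypes. Acetate raised 9 and lowered 2 in ACLYKO, raised 3 and lowered 1 in WT (11 and 4 without the libraries that stand apart), and raised 2 and lowered 6 in GLUT3KO, where 4.86% of all genes were higher and 7.89% lower. That last direction turned with median-ratio scaling, to 3 higher and 2 lower.

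In the adenosine list of 9 genes around CD39 and CD73, GLUT3 loss raised 3 and lowered 2, with a median of 0.01, and median-ratio scaling gave 2 and 3. The 3 higher of 9 are near the 24.9% of all genes. ACLY loss raised 1 and lowered 0 (3 and 1 without the libraries that stand apart). Adora2b, an adenosine receptor gene, went from 2.58, 4.14 and 5.28 TPM in WT to 20.4, 47.1 and 32.0 TPM in GLUT3KO (2.73, adjusted p = 5.60e-06) and 106, 96.9 and 82.5 TPM in GLUT3KO with acetate. Adora2b and Nt5e were both highest in the GLUT3KO libraries, with no overlap with the other groups. Dpp4, which encodes the adenosine deaminase-binding protein CD26, rose with GLUT3 loss (2.90, adjusted p = 0.000235) and with ACLY loss (2.81, adjusted p = 0.000728), the latter with ACLYKO replicate 1 at 95.2 TPM beside 16.8 and 15.5 TPM and lost with only the 2 groups in the fit (0.103). Acetate raised 3 and lowered 0 of the 9 in WT, 2 and 1 in GLUT3KO, and 5 and 1 in ACLYKO, beside 4.22%, 4.86% and 11.7% of all genes higher. Without the libraries that stand apart these were 5 and 2, 3 and 2, and 5 and 2.

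Around GARP, 7 genes of latent TGF-beta handling had 3 higher and 1 lower with GLUT3 loss (2 and 2 with quantile normalization), and 2 higher and 0 lower with ACLY loss (1 and 1 with median-ratio scaling, 4 and 1 without the libraries that stand apart). The shares of all genes higher were 24.9% and 12.7%. Itgav, the integrin alpha-v chain that helps to free TGF-beta, rose with GLUT3 loss from 32.1, 26.1 and 23.9 TPM to 99.0, 72.3 and 86.8 TPM (1.62, adjusted p = 1.92e-05). Ltbp3, a latent TGF-beta binding protein, rose with acetate in all 3 genotypes, by 1.43 in WT (adjusted p = 7.52e-05), 1.09 in GLUT3KO (0.000385) and 1.47 in ACLYKO (1.33e-05). Around CTLA-4, of 6 genes for its ligands, its rival CD28 and its trafficking, 3 rose with GLUT3 loss and none fell, beside 24.9% of all genes higher, while 1 rose and 2 fell with ACLY loss (2 and 3 without the libraries that stand apart), beside 12.7% and 6.38%. Scaling by median ratio added 1 lower call for GLUT3 loss. Cd28, a neighbour of Ctla4 on chromosome 1, changed as 948, 930 and 817 TPM in WT, 1763, 1846 and 1944 TPM in GLUT3KO, and 355, 457 and 393 TPM in ACLYKO. Its log2 change was 1.04 for GLUT3 loss (adjusted p = 2.30e-05) and -1.17 for ACLY loss (adjusted p = 2.82e-05, lost with only the 2 groups in the fit at 0.0533), so Cd28 rose with GLUT3 loss where Ctla4 fell, and both fell with ACLY loss.

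**Figure D4:**
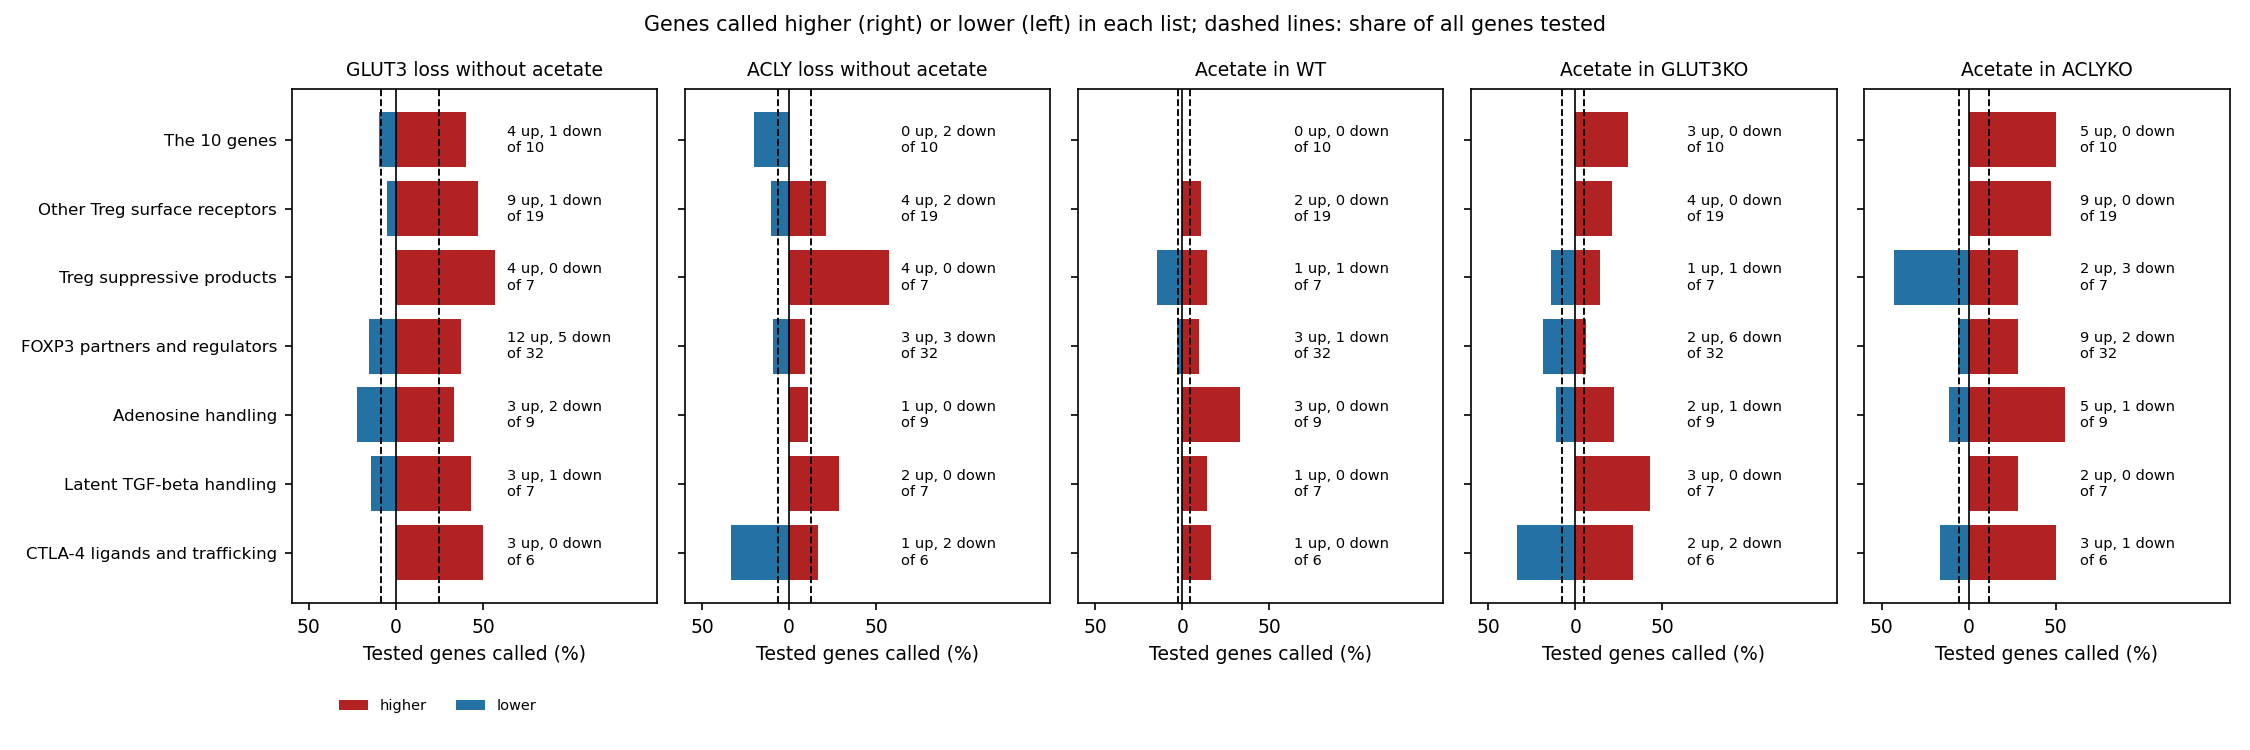
Percent of the tested genes of each list that were higher (right) or lower (left) at an adjusted p under 0.05 in each of 5 comparisons, with dashed lines at the same percent of all genes tested. The row of the 10 members has 40% higher and 10% lower for GLUT3 loss and 50% higher for acetate in ACLYKO.

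Across all 18 libraries the genes with the levels most like those of a member were ranked by Pearson's r of log2(TPM + 1). The candidates were 9075 tested protein-coding genes with a highest group mean of at least 5 TPM, leaving out unnamed gene models. Libraries of a group share genotype and treatment, so r describes the pattern over 6 groups. Nt5e was most like Nrp2 (r = 0.992), Rab12 (0.990) and Rufy2 (0.988), and Gpr83 was most like Mtmr11 (0.974), Igf2r (0.974) and Foxf2 (0.968). Nt5e and Gpr83, both high in GLUT3KO libraries, had r = 0.956 with each other. Lrrc32 was most like Adora2b (0.971), Ly6c1 (0.968) and Clic4 (0.963). For Foxp3 the highest was Ube2r2 at 0.822. Foxp3 had 12 to 80 reads a library, and the part of counting noise in its lower r was not tested.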

How the data were processed

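Polyadenylated RNA of the 18 cultures was made into stranded libraries and read as single ends, per the labels' protocols. The submitters' processing notes name the genome build GRCm38.p6 and the tools STAR 2.7.2b, featureCounts 1.6.4, Subread, DESeq2, cutadapt and bcl2fastq 2.20.0.422, without their roles. How strand was set in counting is not stated in these sources. The authors deposited 1 table of TPM, an other unit than counts, with the exon length of each of 45703 genes, also an other unit (bases). TPM times exon length gave whole reads in 100% of values under 500 reads (tolerance 0.01). From it came the library depths and the reads used for voom.

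A gene was tested if 3 or more libraries had it at 1 TPM or above. Group means of log2(TPM + 1) over all 18 libraries were fitted with limma 3.58.1 in R 4.3.3 (eBayes with trend and robust), in 12 comparisons, with p-values adjusted by Benjamini and Hochberg over 14229 genes and a threshold of 0.05. A log2 change on this scale understates that of low genes. SE and 95% intervals are those of the fit, and TPM ratios are ratios of group means. The members and gene lists were chosen with earlier results of these data known. Levels of all 10 members are given in every group, and their changes in each comparison where they were called or had an unadjusted p under 0.1. Of each other list, changes are mainly given for genes among its 3 smallest adjusted p in some comparison. Some of these genes are also given where they rank lower, such as Il10, Fgl2, Gzmb and Il17a. All identity genes raised by GLUT3 loss are named. Gene names and positions are those of the table, and RefSeq gave the promoter windows.

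Replicate numbers come from the labels, which do not say what they share. Residuals of libraries with the same number correlated by more than 0.1 in every pair for acetate in WT (0.128, 0.120 and 0.130), in GLUT3KO (0.194, 0.147 and 0.171) and in ACLYKO (0.548, 0.265 and 0.493) and for ACLY loss without acetate (0.567, 0.285 and 0.577). For GLUT3 loss without acetate the correlations were 0.721, 0.622 and -0.354. Replicate 1 stood apart in WT, GLUT3KO, ACLYKO and ACLYKO with acetate, and its part in these correlations was not tested. The main fit held no block, and replicate blocks were run only as alternatives. The test was also run on simulated data in which libraries varied independently. That run does not cover the correlations above. Alternatives were another pseudocount, other filters, median-ratio scaling, quantile normalization, voom on the recovered reads, replicate blocks, a fit of only the groups compared, each library left out, and, chosen after seeing the data, the 4 libraries that stand apart left out.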

Additional observations from a re-analysis of the deposited data

Results flagged for a closer look

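Differences between genotypes in the response to acetate were tested by interaction terms in limma, and 3 of them passed for members. Izumo1r rose with acetate by 1.15 more on the log2 scale in ACLYKO than in WT (adjusted p = 0.0295, from means of 12.4 to 40.03 TPM in ACLYKO and 32.5 to 45.9 TPM in WT), higher with acetate in all 3 libraries of both genotypes. It did not pass with the replicate number as a block within genotype (adjusted p = 0.0616), with voom (0.0783), with only the groups compared in the fit (0.109) or in 7 of the 12 fits that left out 1 library. For Izumo1r the acetate change in GLUT3KO against that in ACLYKO was -0.98 (adjusted p = 0.0292), with GLUT3KO going from 36.9 to 59.0 TPM. It did not pass with median-ratio scaling (0.0638), voom (0.0988) or only the groups compared (0.101). For Lrrc32 the acetate change in GLUT3KO against that in ACLYKO was 0.93 (adjusted p = 0.0423), from 3.01 to 9.86 TPM in GLUT3KO and 0.290 to 0.857 TPM in ACLYKO. The TPM ratios of Lrrc32 were 3.27 and 2.95, and with a pseudocount of 0.1 the difference was 0.37 (adjusted p = 0.746). Among the genes around them, Il10 rose less with acetate in ACLYKO than in WT, by a difference of -2.35 (adjusted p = 0.00441), and more in GLUT3KO than in ACLYKO, by 2.62 (adjusted p = 0.000749). Both differences of Il10 passed in every alternative run.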

How the results depend on the processing

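Of 120 pairs of a member and a comparison, 35 were called (Foxp3 between GLUT3KO and ACLYKO included), 20 of them under every alternative and none with the other sign in any, while 19 of the 85 uncalled pairs were called in some. All counts of members in this paragraph hold Foxp3 wherever its adjusted p was under 0.05, although it entered the test through its high groups. With Foxp3, GLUT3KO against ACLYKO without acetate had 6 in the fit of all libraries. Depth limits Foxp3 and Lrrc32, with 12 and 4 reads in their lowest library. Members called, quantile normalization against the fit of all libraries: GLUT3 loss 3 against 5, ACLY loss with acetate 1 against 2, acetate in WT 2 against 0, acetate in ACLYKO 3 against 5. Median-ratio scaling gave 2 for acetate in WT. With a pseudocount of 0.1, ACLY loss had 4 in place of 2. A minimum of 5 TPM left 1 for ACLY loss with acetate and 3 for acetate in ACLYKO. With only the groups compared in the fit, ACLY loss had 1 and acetate in ACLYKO 2. The replicate block within genotype gave 1 for acetate in WT and 8 in ACLYKO, and the plain replicate block kept 5 for GLUT3 loss and 2 for ACLY loss, and neither moved another count of members by over 1.5 times apart from the interactions. Without the libraries that stand apart, GLUT3 loss with acetate had 7 against 4 and acetate in WT 2. For the difference in acetate change between GLUT3KO and WT, median-ratio scaling, quantile normalization and leaving out those libraries gave 1 each in place of 0. Between ACLYKO and WT, voom, the replicate block within genotype and only the groups compared gave 0 in place of 1, and leaving out those libraries 2. Between GLUT3KO and ACLYKO, a pseudocount of 0.1, no filter, a minimum of 5 TPM, median-ratio scaling and leaving out those libraries gave 1 each in place of 2, and voom and only the groups compared 0. Leaving out 1 library gave 4 to 5 members for GLUT3 loss, 2 to 2 for ACLY loss, 3 to 5 and 1 to 2 for these with acetate, 0 to 0, 1 to 3 and 4 to 6 for acetate in WT, GLUT3KO and ACLYKO, 5 to 6 and 4 to 5 for GLUT3KO against ACLYKO without and with acetate, and 0 to 1, 0 to 1 and 0 to 2 for the 3 interactions in the order above. Over all genes the calls ran from 3888 to 8545 for GLUT3 loss (4753 in the fit of all libraries), 342 to 5591 for ACLY loss (2715), 3506 to 9393 and 1347 to 4077 for these with acetate (4329 and 1925), and 624 to 2824, 1338 to 5145 and 424 to 4495 for acetate in WT, GLUT3KO and ACLYKO (925, 1813 and 2458). The share of calls that were higher moved with median-ratio scaling from 66.6% to 52.6% for ACLY loss, from 68.8% to 57.4% and from 85.4% to 60.6% for the losses with acetate, and from 38.1% to 58.8% and from 67.6% to 56.9% for acetate in GLUT3KO and ACLYKO. Of 201 further pairs of a list gene and a comparison, 75 lost their call under some alternative and 0 changed sign. The cause of these shifts was not tested.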
